A study of Homo sapiens with 12 samples.

Results

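The beta-globin locus on chromosome 11 (11p15.4) was examined in the GATA1 and TAL1 ChIP-seq interval lists of control K562 cells. Its members were the rows of either list that overlapped chr11:5220000-5320000 of the human build hg19, a window set by position alone. This gave 12 intervals of 22769 in the GATA1 list and 5 of 8918 in the TAL1 list, or 12 distinct intervals of 24654 on chromosomes 1 to 22 and X. K562 is a human erythroleukemia line. The cells of both libraries are labelled control for genotype, carry neither of the knockdowns made in the study (short hairpins delivered by lentivirus that target GATA1 or TAL1), and were grown in RPMI1640 with serum. The labels do not say whether control cells received a control vector. GATA1 was precipitated with the antibody sc-1233 and TAL1 with sc-12984 from chromatin cut with micrococcal nuclease to 1 or 2 nucleosomes. There was 1 library per factor, so no value has a replicate error and no test between samples was made. The other 10 libraries of the series were not analysed here.

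The locus holds the beta-like globin genes in the order of their use in development. HBE1 encodes the embryonic epsilon chain, HBG2 and HBG1 the fetal gamma chains, HBD the minor adult delta chain and HBB the adult beta chain. All are transcribed away from the locus control region, a distal enhancer that lies beyond HBE1 and consists of numbered DNase I hypersensitive sites, HS1 being nearest to HBE1 and HS5 farthest. GATA1 is the zinc finger factor that binds GATA motifs in erythroid cells. TAL1, a basic helix-loop-helix factor, binds E-boxes and forms a complex with GATA1, LMO2 and LDB1, and LDB1 is known for joining the locus control region to the globin genes. K562 cells are known for expressing the embryonic and fetal genes of the locus with little HBB.

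TAL1 was listed at 4 intervals of the locus control region and at 1 interval at HBB, and at none of the intervals near HBD, HBG1, HBG2 or HBE1. GATA1 was listed at all of those 5 TAL1 intervals and at 7 more. The boundaries of each TAL1 interval were those of a GATA1 interval, and such an interval is called shared below. Thus 5 of 5 TAL1 intervals in the window were shared, where 78.9% of the TAL1 list is. Among GATA1 intervals 5 of 12 were shared, or 41.7% (exact Clopper-Pearson 95% interval 15.2 to 72.3%), where 30.9% of the GATA1 list is. The interval covers counting error over intervals only, treats neighbours as independent, and contains the value of the whole list. Of the 12 distinct intervals 5 were shared, where 28.5% of all distinct intervals are. By place the 5 shared intervals were split 4 to 1, with 4 of 4 GATA1 intervals shared in the locus control region and 1 of 8 outside it. This split was known when the members were chosen and was not tested. The window held 0 intervals listed for TAL1 alone. In the plot of the locus, shared intervals stand at one end of the gene row and over the locus control region, and the stretch from HBD to HBE1 holds GATA1 intervals alone.

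**Figure D1:**
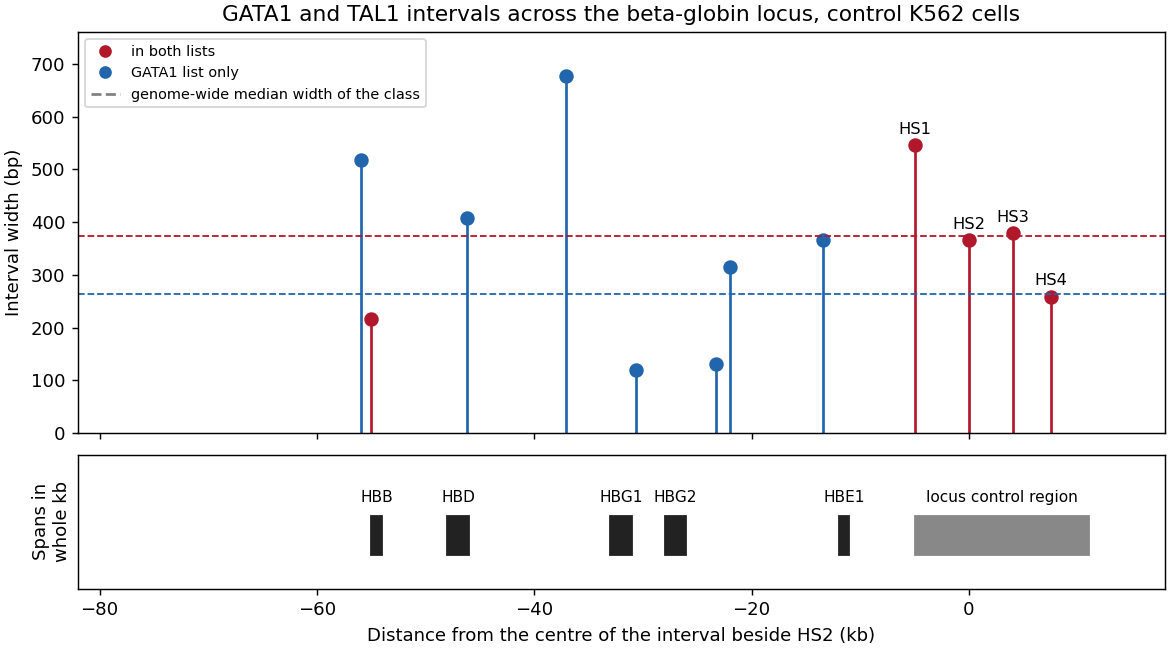
Width in bp of the 12 intervals of the window (points, 1 per interval, coloured by list) against distance in kb from the centre of the interval beside HS2, above the spans of the 5 genes and the locus control region in whole kb. Dashed lines give the median width of all shared intervals (373 bp) and of all intervals in the GATA1 list alone (264 bp); the 4 red points at the right, 259 to 546 bp wide, stand beside HS1 to HS4, and 1 red point of 216 bp stands at HBB.

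Within the locus control region each of the 4 intervals lay beside a different hypersensitive site, by the sites' known approximate positions and a distance of at most 1 kb between centres. The interval beside HS1, the site nearest to HBE1, was chr11:5296794-5297339. At 546 bp it was the widest of the 4, and 16.7% of all shared intervals were at least as wide. The interval beside HS2, a site known as a classical erythroid enhancer, was chr11:5301817-5302182. Its width of 366 bp was near the median of all shared intervals, 52.0% of which were at least as wide. The interval beside HS3 was chr11:5305838-5306216, with 379 bp, and that beside HS4 was chr11:5309400-5309658, with 259 bp. HS4 thus had the narrowest interval of the 4, and 77.1% of all shared intervals were at least as wide. A shared interval gives 1 width for both factors, so none of these widths compares GATA1 with TAL1. The lists hold no height or read number, so the strength of binding at the 4 sites cannot be ordered.

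The centres of these 4 intervals were 4.93 kb apart from HS1 to HS2 and 4.03 kb from HS2 to HS3. From HS3 to HS4 they were 3.50 kb apart, and together the 4 spanned 12.9 kb. Outside the region neighbouring centres, at genes or between them, were from 0.887 to 9.13 kb apart. The 4 were grouped by lying in a short region, which bounds their spacing, so the difference in range was not tested. The gap between the interval beside HS1 and the nearest interval on the gene side was 8.05 kb. No interval of either list lay beside HS5, the outermost numbered site, or beside the 3' HS1 site on the far side of HBB, both of which are known for binding CTCF. The lists give positions only and the depth of the libraries is unknown, so a site that is not listed is not shown to be unbound.

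At HBB, the adult gene, 2 intervals lay 520 bp apart. A gene was given its span in whole kb with 1 kb added on each side, because no hg19 annotation was used, so exons and introns are not assigned. The first interval, chr11:5245818-5246334, was 517 bp wide, in the GATA1 list alone, and 0.666 kb outside the HBB span on the side where transcription ends. The second, chr11:5246855-5247070, was shared, 216 bp wide, and reached into that same end of the span. It was the TAL1 interval nearest to any of the 5 genes and the narrowest shared interval of the window, and 85.3% of all shared intervals were at least as wide. The next TAL1 interval, beside HS1, lay 49.7 kb away, with 6 GATA1 intervals and the other 4 genes in between. At the end of HBB where transcription starts neither list held an interval. The HBB span in whole kb is shorter than the RefSeq length of HBB, 1608 bp. The gap of the first interval to the gene itself may therefore be smaller, and the shared interval may lie further inside the gene.

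At HBD, whose product is a minor part of adult hemoglobin, 1 interval was listed. It was chr11:5255628-5256034, 407 bp wide, in the GATA1 list alone, and it crossed the end of the HBD span where transcription starts. The nearest TAL1 interval was the shared one at HBB, 8.56 kb away. Of the 5 genes, HBD was the 1 matched in the RefSeq promoter table (GRCh38.p14), and HBB, HBG1, HBG2 and HBE1 were not. The 250 bases before the HBD start, chr11:5234484-5234733 of GRCh38.p14 on the minus strand, are shown because the GATA1 interval lies at this end of the gene. Capitals mark matches of letters only. They are the NF-E2 core TGAGTCA first, then the letters CCAAT, and nearest to the start TTATCT, which reads AGATAA on the other strand.
HBD: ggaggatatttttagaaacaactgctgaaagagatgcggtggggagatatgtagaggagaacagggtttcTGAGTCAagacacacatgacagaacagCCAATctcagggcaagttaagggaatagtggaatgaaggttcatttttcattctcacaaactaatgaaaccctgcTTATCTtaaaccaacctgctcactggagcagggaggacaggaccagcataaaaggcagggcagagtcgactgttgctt

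The HBD sequence held 1 GATA motif. The motifs searched on both strands were AGATAA with its variant AGATAG, as well as TGATAA with its variant TGATAG, and the match was at bases -78 to -73 counted back from the start. At least 1 of these 4 motifs was in 22.3% of the same 250 bases of 35114 promoters, and AGATAA itself in 9.17%. TGAGTCA, the core that NF-E2 and AP-1 factors bind, was at -180 to -174 and in 4.20% of promoters. Its reverse complement TGACTCA was searched too and is the same match. CCAAT was at -153 to -149 and in 32.0% of promoters. The TATA-like ATAAAA was at -31 to -26 and in 14.8% of promoters. The general E-box CANNTG, the kind of site TAL1 binds, matched at -232 to -227 and at -168 to -163, and 61.8% of promoters held it. The specific E-boxes CAGATG (in 12.2% of promoters), with CAGGTG (in 17.5%), plus CAGCTG (in 14.0%), had 0 matches. So had the joint motif of CTG followed after 8 or 9 bases by either GATAA or else by GATAG, which was in 1.86% of promoters. The CACCC-type motif CCACACCC (in 2.97% of promoters), its loose form CCNCNCCC (in 53.4%), the longer NF-E2 motif GCTGAGTCA (in 0.456%) with the BCL11A motif TGACCA (in 9.19%) had 0 matches as well. A match describes letters and is not a bound site. The sequence and the interval come from different builds, so which of these bases lie in the interval is not known.

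The fetal genes differed from each other in the lists, but they cannot be told apart with certainty. At HBG1 there was 1 interval, chr11:5271300-5271419, in the GATA1 list alone. It was 0.300 kb outside the HBG1 span on the side where transcription starts, and at 120 bp it was the narrowest interval of the window; 87.7% of all intervals in the GATA1 list alone were at least as wide. At HBG2, which encodes a nearly identical chain, 0 intervals were listed. HBG1 and HBG2 and their surroundings are near-identical copies, so reads from one can align to the other. The treatment of such reads is not given in these sources. The interval at HBG1 had the largest gap to a TAL1 interval in the window, 24.2 kb. HBE1, the embryonic gene, also had 0 intervals under the 1 kb margin, and its nearest interval was 1.26 kb from its span. That span in whole kb is shorter than the RefSeq length of HBE1, 1601 bp, so the gap to the gene itself may be smaller.

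Between the genes lay 4 intervals, all in the GATA1 list alone. The interval between HBD and HBG1, chr11:5264625-5265301, was the widest of the window at 677 bp, and 3.60% of all intervals in the GATA1 list alone were at least as wide. In the RefSeq gene order of GRCh38.p14, the genes between HBD and HBG1 are HBBP1, a transcribed pseudogene of the family, and BGLT3, a long noncoding RNA; neither was placed on hg19. Between HBG2 and HBE1 lay the other 3. A pair of them, chr11:5278701-5278831 with 131 bp and chr11:5279865-5280180 with 316 bp, stood 1033 bp apart on the HBG2 side, the first 2.70 kb outside the HBG2 span. The remaining one, chr11:5288378-5288744 with 367 bp, was on the HBE1 side, where HBE1 transcription ends, and 8.05 kb from the interval beside HS1.

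The 7 intervals in the GATA1 list alone lay a median of 16.6 kb from the nearest TAL1 interval (0.52 to 24.2 kb). Over all 15740 such intervals the median was 37.8 kb, with an interquartile range of 11 to 102 kb. The TAL1 intervals at HBB and beside HS1 lie 49.7 kb apart. Each GATA1-only interval of the window lies between them or, for the first, 0.52 kb outside. No gap in the window could therefore reach 37.8 kb, and its lower median follows from this placement. In the window the GATA1-only intervals had a median width of 367 bp and the shared ones 366 bp. Over all intervals the medians were 264 bp and 373 bp, with interquartile ranges of 168 to 389 bp and 270 to 489 bp. The medians of both classes were thus nearly equal in the window, where GATA1-only intervals ranged from 120 to 677 bp and shared ones from 216 to 546 bp. Altogether the 12 intervals covered 4301 bp, of which 1550 bp were in intervals placed in the locus control region. The interval beside HS1 crosses the edge of that region and was counted whole.

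The intervals of the locus stood apart from their surroundings on both sides. The GATA1 intervals spanned 63.8 kb, and the nearest GATA1 intervals beyond them were 63.9 kb away on the HBB side and 46.7 kb away on the side of the locus control region. For TAL1 the nearest intervals beyond were 53.5 kb away on the HBB side, an interval in the TAL1 list alone, and 243 kb away on the other side. The 500 kb next to the window on the HBB side held 10 distinct intervals, of which 6 were shared, 3 GATA1 only and 1 TAL1 only. The 500 kb on the other side held 11, of which 2 were shared, 8 GATA1 only and 1 TAL1 only. That is 2.0 and 2.2 intervals per 100 kb, against 12 in the window. The next genes on both sides in the RefSeq order are olfactory receptor genes and pseudogenes, OR51V1 beside HBB and OR51AB1P and OR51B4 beyond HBE1. That order does not place the locus control region.

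**Figure D2:**
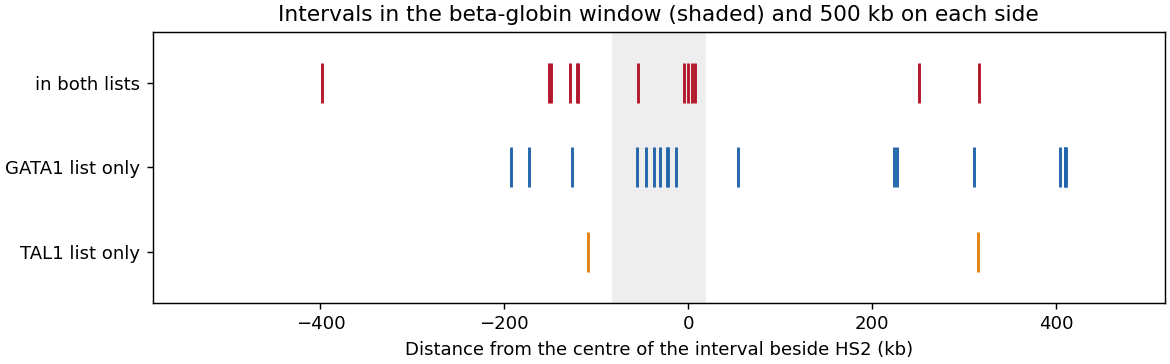
Distinct intervals (ticks, 1 row per class) against distance in kb from the centre of the interval beside HS2, in the beta-globin window (shaded) and in 500 kb on each side. The shaded window holds 12 ticks, 5 shared and 7 GATA1 only, and the stretches beside it hold 10 and 11 over a length 5 times greater.

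Over the genome, few tiles of this length at fixed positions held as many intervals. Of 30353 tiles of 100 kb on chromosomes 1 to 22 and X, 64 (0.211%) held 12 or more distinct intervals, and the mean was 0.812 per tile. No interval at all was in 70.0% of tiles. Intervals were given to tiles by their midpoint, while the window was placed around the locus, which favours the window over tiles at fixed positions. A tile border fell between the intervals beside HS1 and HS2, so no tile held all 12. The locus is therefore not itself among the 64 tiles. In the 64 dense tiles the median share of GATA1 intervals that were shared was 32.1% (interquartile range 22.7 to 47.5%), and 23 of them had a share at or above the 41.7% of the beta-globin window. The window was therefore dense in intervals, and the share of its GATA1 intervals that were shared was within the interquartile range of the 64 tiles with 12 or more. No test was made, since tiles of 1 library are not replicates.

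**Figure D3:**
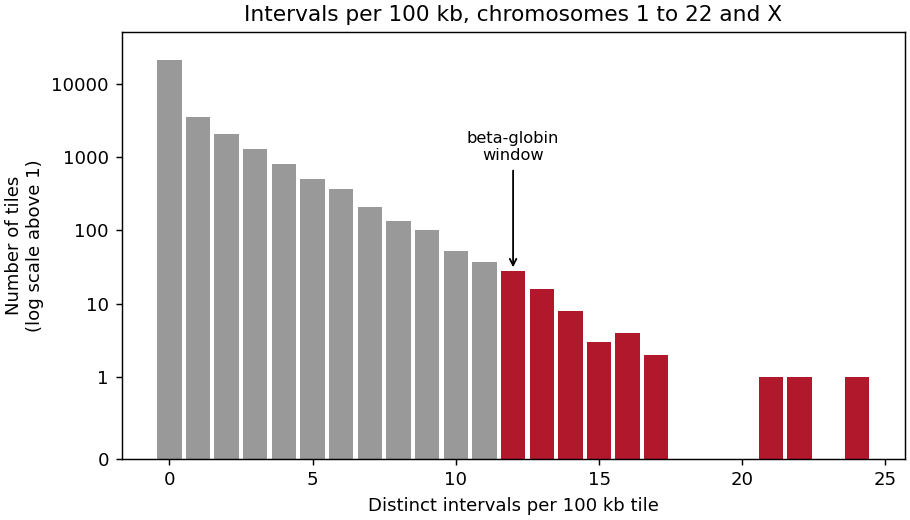
Number of 100 kb tiles (log scale above 1) by their number of distinct intervals, for 30353 tiles; red bars are the 64 tiles with 12 or more. The arrow marks the bar at 12, the number of intervals in the beta-globin window. The locus is split by a tile border and is not in that bar. The highest tile holds 24.

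The alpha-globin locus encodes the partner chains of hemoglobin (HBZ, HBM, HBA2, HBA1 and HBQ1) and has its known enhancers on the low-coordinate side of the genes. A window of the same length there, chr16:140000-240000, also held 12 distinct intervals. The alpha-globin window had 11 GATA1 and 5 TAL1 intervals with 4 shared, beside 12, 5 and 5 in the beta-globin window. The shares of GATA1 intervals that were shared were 36.4% and 41.7%. In coordinate order the first of the alpha-globin intervals was TAL1 only, the next 4, from chr16:163279-163833 to chr16:194779-195210, were shared, and the last 7, from chr16:202523-202751 to chr16:231425-231630, were GATA1 only. Both windows thus held 7 GATA1-only intervals as listed, and in both the shared intervals stood mostly in 1 run. In the alpha-globin window most GATA1-only intervals stood in tight groups. One group ran from chr16:225000-225246 to chr16:225455-225745, another from chr16:231070-231173 to chr16:231425-231630. Close intervals were not joined in that window, so the equal counts and the shares hold only for intervals as listed. By the coordinates, with each tight group joined the alpha-globin window would hold fewer GATA1-only intervals and a higher share of shared ones. In the beta-globin window joining across 500 bp left 12 intervals. Shared intervals were 293 to 601 bp wide in the alpha-globin window and 216 to 546 bp in the beta-globin window, and GATA1-only intervals 85 to 291 bp and 120 to 677 bp. As listed, every shared interval of the alpha-globin window was wider than every GATA1-only one, if only just (293 against 291 bp). In the beta-globin window the widths of both classes overlapped. The narrow GATA1-only intervals of the alpha-globin window belong largely to the tight groups, and with these joined the order of widths would not hold. The group that starts at chr16:225000 would then be wider than every shared interval of that window. No hg19 annotation was used, so no interval is assigned to an alpha-globin gene, and the difference between the windows was not tested.

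**Figure D4:**
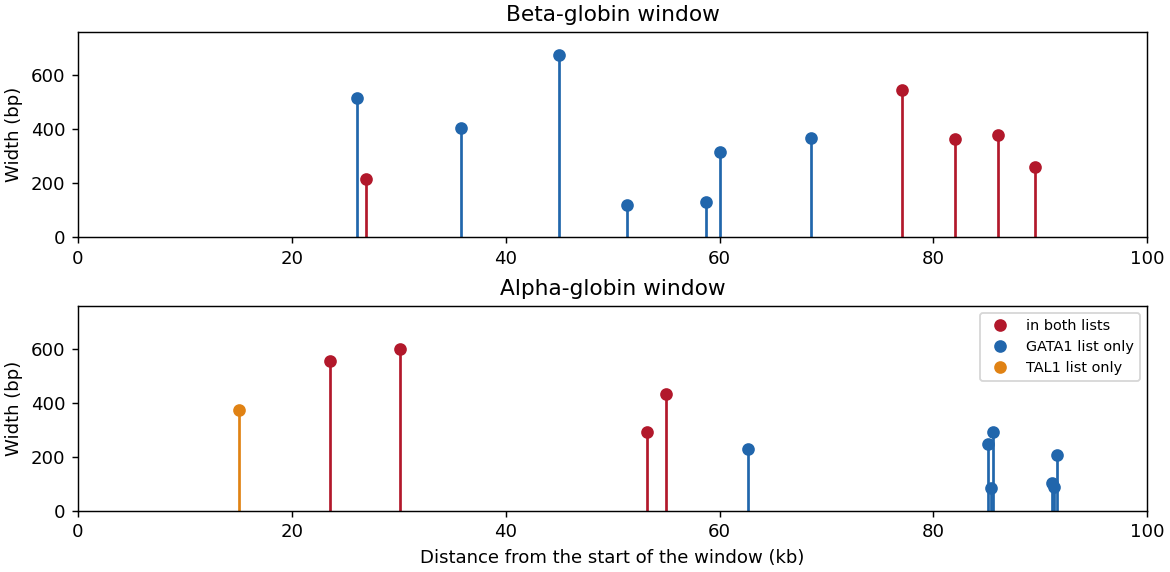
Width in bp of each interval against distance in kb from the start of the 100 kb window, for the beta-globin (top) and alpha-globin (bottom) windows, coloured by list. As listed, without joining close intervals, both windows hold 12 intervals, 7 of them blue (GATA1 only). Red points (shared) are 216 to 546 bp wide at the top and 293 to 601 bp at the bottom.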

How the data were processed

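GATA1 and TAL1 ChIP-seq lists of control K562 cells were used, grouped by sample title. The deposited lists hold 3 columns without a header (chromosome, start, end), so no count, score or fold is available. Trimmomatic, Bowtie2, MACS2, deepTools and hg19 are named per the submitters' processing notes, without versions or thresholds; how intervals of both lists came to share boundaries and the number of reads are not given in the sources used here. Positions are counted from 1. Intervals were compared in Python 3.11.15 with numpy 2.4.6, pandas 2.3.3 and scipy 1.17.1, and chromosome ends came from circlize 0.4.16 (hg19). Functions were tested on simulated lists. Figures used matplotlib 3.10.9. Every interval of the window and all 5 genes are named, by the rule. The members, the places and the lists of motifs were chosen with earlier results of these data known. The 4 TAL1 intervals on the mitochondrial sequence were left out of all shares. Alternatives concerned the window, what counts as shared, width, margins, joining and tile position.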

Additional observations from a re-analysis of the deposited data

How the results depend on the processing

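The counts of 12 GATA1 and 5 TAL1 intervals were the same with the window 20 kb longer on each side and with a window from the first gene to the end of the locus control region plus 2 kb. The share of GATA1 intervals that were shared was 41.7% under an overlap of 1 bp or an overlap of 50% of each interval. These 2 settings could not differ from the main one. Over all 15740 GATA1-only intervals the smallest gap to a TAL1 interval was 0.037 kb, so none overlapped one. The share was also 41.7% under a distance of 200 bp, and 50% under a distance of 1000 bp. With intervals below the median width of the list left out, the share was 37.5%, and with the others left out 50%. The whole-list shares under these width and distance settings are not given, and the 30.9% of the main setting does not stand for them. Over all intervals shared ones are wider, with a median of 373 bp against 264 bp for GATA1-only ones. Without the intervals of the locus control region the share was 12.5%, an alternative added after the data were seen. The share of TAL1 intervals was 100.0% under each setting of overlap, distance and width. As all 5 have the boundaries of a GATA1 interval, no such setting could give another value. With no margin at genes, 2 intervals in place of 4 were at a gene, the GATA1-only ones beside HBB and HBG1 moving to between. With 2 kb the number was 5, the added one being the GATA1-only interval nearest to HBE1. In the beta-globin window, joining intervals across 2000 bp gave 10 sites in place of 12. Joining was not tried in the alpha-globin window. Shifting the tiles by 50 kb gave 63 dense tiles in place of 64. With 1 library per factor no replicate could be left out. No paired analysis was possible because each factor has 1 library. Depth is unknown, so an interval that is not listed is not shown to be unbound.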

Other observations

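The run of 4 shared intervals in the locus control region was set beside other close groups of GATA1 intervals, a description chosen after the values were seen. Over chromosomes 1 to 22 and X there were 1061 sets of 4 consecutive GATA1 intervals within 12.9 kb or less, the span of the set in the locus control region. Sets can overlap, so they are not independent, and the one described is among them. All 4 intervals were shared in 57 sets (5.37%), 3 in 174 (16.4%), 2 in 243 (22.9%), 1 in 310 (29.2%) and none in 277 (26.1%). Without sets that also held a TAL1-only interval, 55 of 1023 were wholly shared (5.38%). No p-value was computed for this.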
